A study of Mus musculus with 12 samples.

Results

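The genes described here encode 4 families of pre-mRNA splicing proteins, which are the small nuclear ribonucleoprotein (snRNP) proteins, the subunits of the splicing factor SF3 complexes, the SR proteins and the heterogeneous nuclear ribonucleoproteins (hnRNPs). They were taken by symbol (Snrp, Sf3a or Sf3b with a number, Srsf and Hnrnp, with the older Sfrs and Hnrp symbols of the same genes) from the probe sets that the array's annotation assigns to exactly 1 gene. The rule found 44 genes read by 115 probe sets, of 12393 genes read by 20380 such probe sets. Of the 44 genes, 43 passed the filter on low signal and were tested among 7960 genes: 7 snRNP proteins, 9 SF3 subunits, 9 SR proteins and 18 hnRNPs. Snrpn, which encodes the Sm protein SmN of neurons, had 1 probe set of its own, below the filter, and 4 further genes (Hnrnpa3, Snrpa, Snrpd1 and Snrpd2) were read only by probe sets that also name another gene.

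The samples were cells sorted from hind limb muscle of mice (C57BL/6J, aged 8 to 12 weeks), on 4 Affymetrix Mouse 430A arrays per group. Activated satellite cells (ASC) bound the antibody SM/C-2.6, were grown for 4 days in DMEM with 20% fetal calf serum and 2.5 ng/ml basic FGF, and were over 99% MyoD-positive by the labels. Quiescent satellite cells (QSC), the stem cells of muscle at rest, were the same antibody-positive fraction directly after the sort, over 97% Pax7-positive by the labels. Non-myogenic cells (NMC) bound neither SM/C-2.6 nor CD45 antibody, were also collected directly after the sort, and held under 1% myogenic cells. Activation, culture and time since the sort all separate ASC from QSC and cannot be told apart in this design. Whether the 4 samples of a group were taken from different mice is not in the labels, and the spread behind each p-value may be technical. Labelling used a small-sample kit on 5 arrays (ASC, QSC replicates 1 and 2, and NMC replicate 1) and a two-cycle kit on the other 7 arrays. In each list of values below, replicates run from 1 to 4.

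Introns are removed by the spliceosome, whose U1, U2, U4, U5 and U6 snRNPs assemble stepwise on the transcript. Each of U1, U2, U4 and U5 carries a ring of Sm proteins, and the U2 snRNP holds the SF3a and SF3b complexes, which fix it at the branch point. SR proteins mostly promote and hnRNPs often repress the use of exons near the sites they bind, so the balance between them helps to choose splice sites. Many genes of the SR and hnRNP families also regulate their own transcripts through alternatively spliced exons that lead to decay.

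Promoters are shown first for the snRNP and SF3 genes, since those families contained the largest share of genes called higher in ASC than in QSC. RefSeq promoter windows (GRCm38.p6, from 250 bases before to 50 bases after the annotated start, the first window where several are listed) were matched for 38 of the 43 tested members. The letters CCGGAAG, the core bound by ETS family factors such as GABP, were found on either strand in 15 of the 38 windows. They were in 6 of 7 SF3 windows, 4 of 6 snRNP windows, 3 of 9 SR windows and 2 of 16 hnRNP windows. Among all 27025 promoter windows 9.12% held these letters, and among the windows of the tested genes 19.6% did. The windows of members called higher in ASC than QSC held them in 9 of 17 cases, those called lower in 2 of 10 and those not called in 4 of 11. Of those 9, all but Hnrnpd were SF3 or snRNP genes, and the uncalled Sf3b2 and Snrpg held the letters too. The counts by call can therefore not be told apart from those by family. A match of these letters is a description and not a site of binding. Below are the stretches of up to 30 bases on each side of a match before the start in the 6 SF3 and 3 snRNP genes, cut at the start, 5′ to 3′ on the gene's strand with every match of CCGGAAG or its complement CTTCCGG in capitals. Srsf5, an SR protein gene called lower in ASC, is added for contrast.
Sf3a1 (chr11:4160317-4160353, plus strand): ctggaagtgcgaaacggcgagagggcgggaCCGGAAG
Sf3a2 (chr10:80798629-80798695, plus strand): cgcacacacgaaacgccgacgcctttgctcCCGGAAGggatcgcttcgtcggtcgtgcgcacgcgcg
Sf3a3 (chr4:124714741-124714807, plus strand): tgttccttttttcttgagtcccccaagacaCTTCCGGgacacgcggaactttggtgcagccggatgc
Sf3b2 (chr19:5295458-5295498, minus strand): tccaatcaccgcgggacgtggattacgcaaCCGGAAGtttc
Sf3b3 (chr8:110846996-110847053, minus strand): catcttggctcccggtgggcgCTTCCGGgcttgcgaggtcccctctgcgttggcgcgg
Sf3b6 (chr12:4817493-4817559, plus strand): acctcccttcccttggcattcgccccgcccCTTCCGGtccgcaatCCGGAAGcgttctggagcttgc
Snrpb2 (chr2:143063011-143063068, plus strand): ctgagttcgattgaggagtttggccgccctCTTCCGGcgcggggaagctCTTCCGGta
Snrpc (chr17:27840018-27840084, plus strand): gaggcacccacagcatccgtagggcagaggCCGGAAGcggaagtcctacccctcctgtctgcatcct
Snrpg (chr6:86371365-86371431, plus strand): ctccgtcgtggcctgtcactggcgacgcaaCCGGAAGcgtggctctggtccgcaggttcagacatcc
Srsf5 (chr12:80945379-80945445, plus strand): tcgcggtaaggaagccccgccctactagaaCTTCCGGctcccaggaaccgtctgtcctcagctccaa

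In these stretches the letters stand from 229 bases before the start in Sf3b3 to 7 bases before it in Sf3a1, and in both orientations. Within the printed stretch Sf3b6 holds 2 copies on opposite strands and Snrpb2 holds 2 on the same strand. A further copy in Srsf5 starts 23 bases before the start, outside the stretch shown. In Snrpe, the fourth snRNP gene with a match, they lie after the start and are not shown. Of the other letters searched on both strands, CCAAT was in 18 of the 38 member windows, against 37.9% of all windows and 38.5% of those of tested genes. The GC box GGGCGG was in 26 of 38, against 35.9% and 67.5%. The TATA box TATAAA was in 5 of 38, against 14.2% and 7.06%, and the E-box CACGTG in 3 of 38, against 7.24% and 10.5%. Matches of different letters were counted independently and may overlap.

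Array signals were MAS5 values brought to a common trimmed mean, and differences are given as log2 of the signal plus a pseudocount, ± the standard error of a limma fit with terms for group and kit (n = 4 arrays per group). A gene is called when its Benjamini-Hochberg adjusted p over all 7960 genes is under 0.05. Before scaling, the trimmed means were 323 to 502 on small-sample arrays and 160.4 to 236 on two-cycle arrays. Of the labelled cell types, Pax7 read 640.2 to 1899 in QSC, 61.8 to 125 in ASC and 1.24 to 6.66 in NMC. Myod1 read 3305 to 5829 in ASC, 813 to 1580.4 in QSC and 32.6 to 40.9 in NMC. The 6 satellite cell and myoblast markers were all called higher in QSC than NMC, and all but Calcr in ASC than NMC. Between ASC and QSC, Pax7, Myf5, Cdh15 and Calcr were called lower in ASC, Myod1 higher, and Des was not called. Summed signals of 6 endothelial markers were 74.4 to 108 in ASC, 1561 to 1871 in QSC and 7033 to 8115 in NMC, and those of 6 fibroblast markers were 1169 to 1382 in ASC, 6635 to 14921 in QSC and 26270.1 to 46827 in NMC. The 5 pericyte and smooth muscle markers summed to 2209 to 5144 in ASC, 6316 to 8632 in QSC and 7744 to 17333 in NMC, so QSC and NMC overlapped. Of these 5, 3 were called lower in QSC than NMC and 1, Notch3, higher. The leukocyte markers, of which 1 of 6 passed the filter, summed to at most 293. The erythroid markers, of which 1 of 3 passed it, summed to 276 to 894 in NMC and at most 39.2 in QSC and 17.9 in ASC. The 6 proliferation markers were all called higher in ASC than QSC, with sums of 9824 to 15632 in ASC, 2405 to 4000.1 in QSC and 1952 to 2287 in NMC. Of these 6, 5 were also called higher in QSC than NMC, and all 6 in ASC than NMC. The ratio of 3′ to 5′ Gapdh control signal, which rises with RNA degradation or incomplete amplification, was 1.40 to 2.14 in ASC, 3.06 to 5.36 in QSC and 3.27 to 5.23 in NMC. For beta-actin the ratio overlapped between groups across kits, at 1.26 to 1.92 in ASC, 1.69 to 4.09 in QSC and 1.44 to 2.28 in NMC. Within each kit every QSC array was above every ASC array. With small-sample arrays it was 1.69 and 2.18 in QSC against 1.38 and 1.26 in ASC. With two-cycle arrays it was 4.09 and 2.57 in QSC against 1.92 and 1.90 in ASC. The part of these differences in the results on splicing genes was not tested, and in bulk samples fewer cells of a type and less RNA per cell cannot be told apart.

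Between ASC and QSC the families differed in their shares of called genes. Of the 43 members, 20 were called higher in ASC, where 31.8% of all genes were, and 11 were called lower, where 38.2% of all genes were, and 12 were not called. The median difference was 0.30 over the members and -0.11 over all genes. Most snRNP and SF3 genes were called higher (6 of 7 and 6 of 9), while the SR and hnRNP genes divided, with 2 higher and 3 lower of 9 SR genes and 6 higher and 7 lower of 18 hnRNP genes. The hnRNP shares (33.3% higher and 38.9% lower) were near those of all genes, and the SR shares were 22.2% and 33.3%. The SR counts rest on single arrays, with 4 higher and 1 lower without QSC replicate 2, and 1 lower without ASC replicate 2. The ASC arrays lay above all QSC arrays for 15 members (24.8% of all genes) and below all of them for 4 (28.6% of all genes).

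How the lower calls are stated depends on the scaling of the arrays. The fit on median-centred arrays moved the median of all genes up by 0.48 on the log2 scale, the one on unscaled values by 0.29 and quantile normalization by 0.13. With median centring 28 members were called higher in ASC and 0 lower, with unscaled values 24 and 0, and with quantile normalization 21 and 10. All 20 members called higher were called higher under each of these 3 scalings too. Each of the 3 moved the median of ASC minus QSC upward, so such a call could hardly be lost. The 11 members called lower had differences below the median of all genes under all 4 scalings. For median centring and unscaled values this was not a test of their position. Both change all genes of an array by a common factor, apart from the pseudocount. Quantile normalization could have changed the position, and there all 11 were also below that median. Their lower level in ASC is given below as a position relative to other genes, with the calls of the trimmed-mean scaling. In the median-centred fit 4 of them (Srsf10, Srsf11, Hnrnpdl and Hnrnpul1) had differences just above 0.

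**Figure D1:**
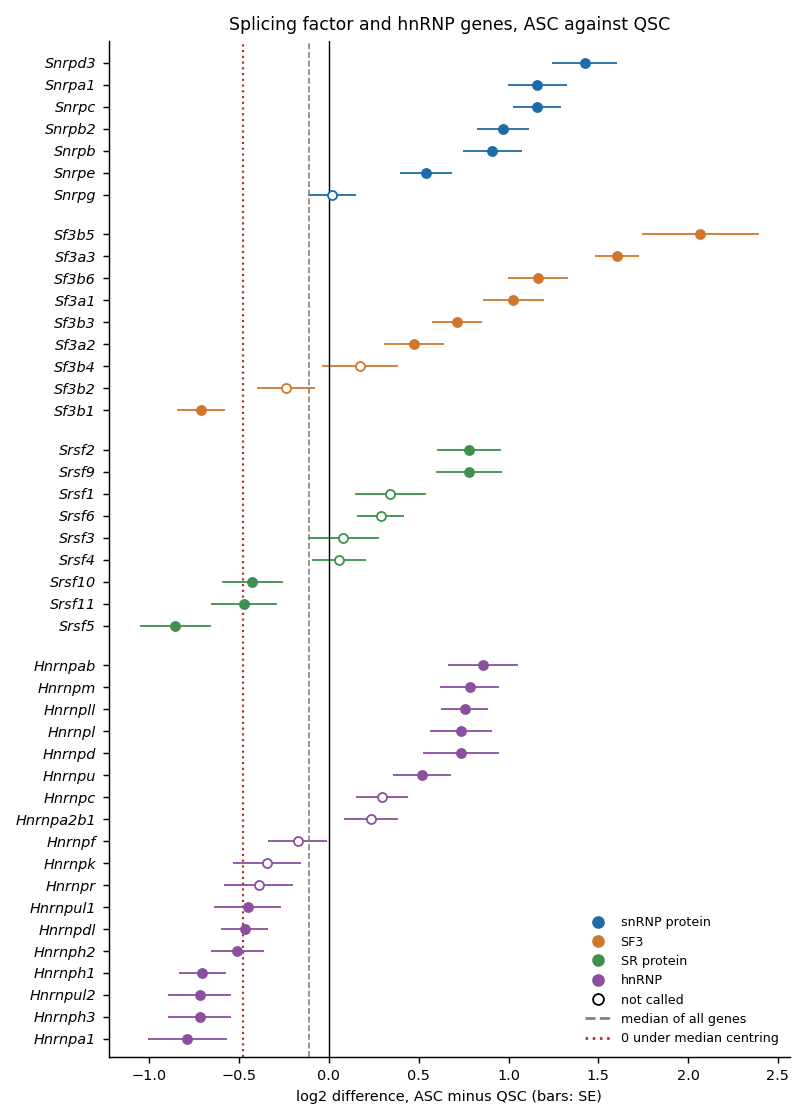
Difference between ASC and QSC for the 43 members (x axis, log2, bars are standard errors, 4 arrays per group) by family. Filled points were called at an adjusted p under 0.05. The dashed line is the median of all genes (-0.11), and the dotted line is where 0 would lie with median centring (shift 0.48). Of the 7 snRNP genes 6 lie to the right of 0 as filled points, while the hnRNP genes spread from -0.79 to 0.86.

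Among the Sm proteins Snrpd3 differed most. Its signals were 1618, 2219.9, 2912 and 3014 in ASC, 743, 838, 814 and 1155 in QSC, and 801, 848, 664 and 726 in NMC. Every ASC array was above every QSC and NMC array, and QSC and NMC overlapped. The difference of ASC over QSC was 1.42 ± 0.18 (adjusted p = 1.0e-05). This value comes from the probe set with the highest signal, and with the mean of all its probe sets the difference turned to -0.33 and was not called. Snrpb, which encodes SmB, was called higher in ASC at 0.91 ± 0.16 (adjusted p = 2.4e-04) from its only probe set.

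Snrpe, the gene of SmE, read 3586, 2869, 4590.3 and 4956 in ASC, 2279, 2914, 2698 and 2898 in QSC, and 1262, 1627, 1615 and 1425 in NMC. The lowest ASC array, replicate 2, lay among the QSC arrays, and all satellite cell arrays exceeded all NMC arrays. Its difference of ASC over QSC was 0.54 ± 0.15 (adjusted p = 0.0047). SmG is encoded by Snrpg, which read 3001, 2653, 5165 and 4912 in ASC, 3345, 3184, 4360.4 and 4168 in QSC, and 1508, 1933, 2019 and 1857 in NMC. ASC lay below QSC with small-sample arrays and above it with two-cycle arrays, both groups stood above NMC, and the difference of ASC over QSC was 0.02 ± 0.13 (adjusted p = 0.92).

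Of the proteins specific to U1 and U2, Snrpc (the U1-specific protein C, which stabilises pairing of U1 with the 5′ splice site) read 1348, 1294, 1463 and 1474 in ASC, 582, 500.0, 712 and 695 in QSC, and 496, 481, 515 and 647 in NMC. The ASC arrays exceeded all others, and the difference over QSC was 1.16 ± 0.13 (adjusted p = 4.1e-06). Snrpa1 encodes the U2-specific protein A′ and read 1245, 1120.1, 1510.1 and 1787 in ASC, 633, 583, 702 and 551 in QSC, and 359, 511, 444 and 329.7 in NMC. Its 3 groups did not overlap, with ASC highest and NMC lowest, and ASC exceeded QSC by 1.16 ± 0.16 (adjusted p = 2.7e-05). Snrpb2 encodes the B″ protein of U2, the partner of A′, and read 584, 606, 893 and 871 in ASC, 256, 247, 483 and 562 in QSC, and 171, 372, 324 and 421 in NMC. All ASC arrays were above the QSC arrays, by 0.97 ± 0.14 (adjusted p = 4.3e-05), and in both satellite cell groups the two-cycle arrays read higher than the small-sample arrays.

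The SF3a complex has 3 subunits, and all of them were called higher in ASC. Sf3a3, which encodes the subunit that helps to join SF3a to the U2 snRNP, read 977, 889.9, 1441 and 1741 in ASC, 281, 306, 507 and 527 in QSC, and 302, 491, 461 and 543 in NMC. The ASC arrays lay clear of all others, with a difference over QSC of 1.60 ± 0.12 (adjusted p = 8.1e-08), which was 1.62 with small-sample arrays and 1.59 with two-cycle arrays. Sf3a1 read 502, 347, 348 and 446 in ASC, 175, 255, 164 and 184 in QSC, and 189, 142, 122 and 117 in NMC, again without overlap of ASC with the others, and differed from QSC by 1.03 ± 0.17 (adjusted p = 1.1e-04). For Sf3a2 the signals were 2484, 1902, 1515 and 1731 in ASC, 1835, 1489, 1204 and 998 in QSC, and 1191, 639, 605 and 476 in NMC. ASC and QSC overlapped in Sf3a2, where the difference of 0.47 ± 0.17 (adjusted p = 0.023) turned to -0.05 with the mean of its probe sets and was not called without the kit term.

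Within SF3b, the complex that contacts the branch point, the subunits diverged. The small subunit gene Sf3b5 read 618, 816, 1140.2 and 1022 in ASC, 306, 103, 120.5 and 383 in QSC, and 337, 408, 552 and 531 in NMC. It showed the largest difference among the members, 2.07 ± 0.33 (adjusted p = 7.4e-05), with no overlap of ASC and QSC but with QSC arrays that ranged from 103 to 383. Sf3b6, which encodes the subunit p14 at the branch point adenosine, read 779, 764, 2004 and 1745 in ASC, 438, 323, 754 and 729 in QSC, and 288, 969.8, 1006 and 1115 in NMC. Each ASC array exceeded each QSC array, narrowly across kits, and the difference was 1.16 ± 0.17 (adjusted p = 3.3e-05). Sf3b3 read 1162, 1128, 1169 and 1160.0 in ASC, 722, 546, 685 and 876 in QSC, and 463, 613, 579 and 607 in NMC, with all ASC arrays near the same value and above the rest, and differed by 0.71 ± 0.14 (adjusted p = 4.5e-04).

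Sf3b1 encodes the largest SF3b subunit, which clamps the branch helix, and it was the one SF3b gene called lower in ASC. Its signals were 1951, 2013, 2321 and 2161 in ASC, 3099.5, 3445, 3964 and 3399 in QSC, and 2212, 2243, 1948 and 2666 in NMC. All ASC arrays lay below all QSC arrays, and ASC and NMC overlapped. The difference of ASC from QSC was -0.71 ± 0.13 (adjusted p = 3.1e-04), and relative to the median of all genes it was -0.60 with the trimmed-mean scaling and -0.58 with median centring, where it was not called. Its other probe sets were lower still. Sf3b2 read 783, 727, 703 and 833 in ASC, 848, 817, 1185 and 798 in QSC, and 588, 579, 428 and 505 in NMC, with overlap between ASC and QSC and a difference of -0.24 ± 0.16 (adjusted p = 0.19). Sf3b4 read 1355, 984, 782 and 810.1 in ASC, 1156, 1237, 528 and 686 in QSC, and 1045, 296, 520.0 and 332 in NMC, where the groups overlapped and small-sample arrays read high in all groups, and it differed by 0.17 ± 0.21 (adjusted p = 0.48).

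**Figure D2:**
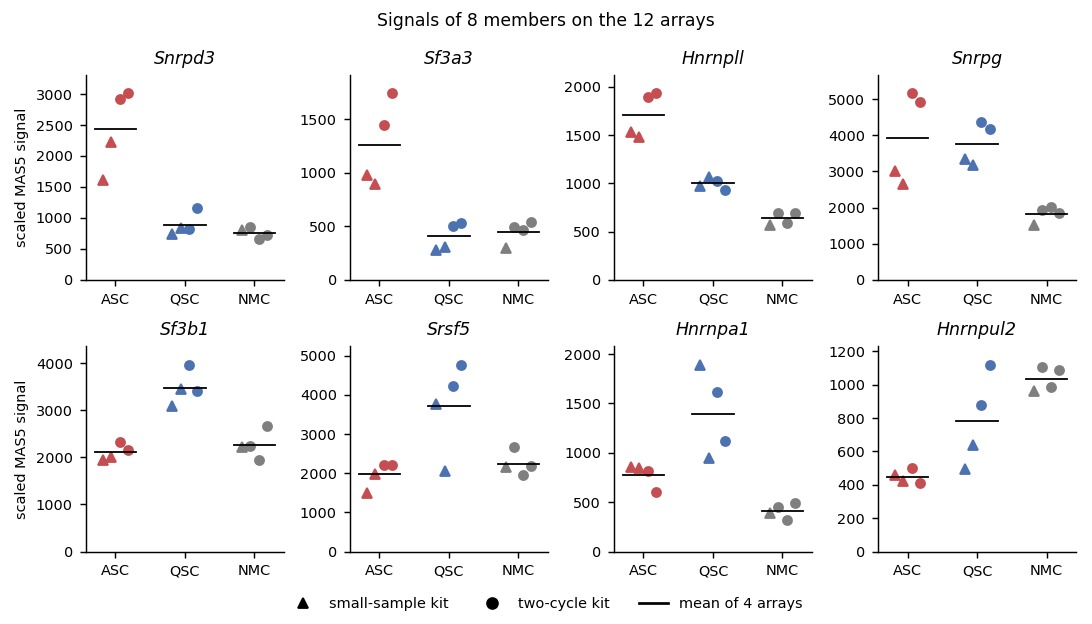
Scaled MAS5 signal (y axis, linear from 0) of 8 members on the 12 arrays, in ASC, QSC and NMC. Triangles are small-sample arrays, circles are two-cycle arrays and lines are means of 4 arrays. In Snrpd3, Sf3a3 and Hnrnpll all ASC points lie above all QSC points, and in Sf3b1 and Hnrnpa1 all lie below them.

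SR proteins called higher in ASC were Srsf2 (SC35, a protein of nuclear speckles) and Srsf9. Srsf2 read 2083, 2046, 1306 and 1682 in ASC, 1422, 1086, 782 and 869.6 in QSC, and 1019.9, 534, 367 and 584 in NMC. ASC and QSC overlapped across kits but not within them, and the difference was 0.78 ± 0.18 (adjusted p = 0.0016). Srsf9 read 728, 859, 1339 and 968 in ASC, 596, 650.4, 447 and 518 in QSC, and 553, 660.2, 593 and 660.5 in NMC. Its ASC arrays exceeded all other arrays, and the difference over QSC was 0.78 ± 0.18 (adjusted p = 0.0018), made of 0.34 with small-sample arrays and 1.22 with two-cycle arrays.

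Srsf5 (SRp40), an SR protein that promotes the inclusion of exons, was the member furthest below QSC in the trimmed-mean fit. It read 1507, 1973, 2214 and 2212 in ASC, 3781, 2064, 4240.2 and 4767 in QSC, and 2163, 2661, 1963 and 2188 in NMC. QSC replicate 2 lay within the range of ASC and the other QSC arrays above it, and the NMC range overlapped that of ASC. The difference from QSC was -0.85 ± 0.20 (adjusted p = 0.0017). It was not called with median centring (-0.36), unscaled values (-0.55) or small-sample arrays alone.

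Srsf10 (SRp38), a splicing repressor when dephosphorylated, read 449, 380.3, 338 and 385 in ASC, 627, 784, 388 and 394 in QSC, and 242, 193, 173 and 125 in NMC. ASC and QSC overlapped, NMC was below both, and the difference of ASC from QSC was -0.43 ± 0.17 (adjusted p = 0.04). With the replicate number as a block Srsf10 was no longer called. Srsf11 read 1199, 896, 1305 and 1340.0 in ASC, 1498, 1742, 1395 and 1938 in QSC, and 1078, 815, 829 and 1239 in NMC, with ASC below all QSC arrays and a difference of -0.47 ± 0.18 (adjusted p = 0.034). Neither kit alone called Srsf11, and the two-cycle arrays alone did not call Srsf10.

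The other 4 SR genes were not called between ASC and QSC. Srsf1 (SF2/ASF), the founding member of the family, read 1751, 1454, 2792 and 2332 in ASC, 1301, 1971, 1995 and 1244 in QSC, and 679, 957, 948 and 833 in NMC. Its ASC and QSC arrays overlapped, and the difference was 0.34 ± 0.20 (adjusted p = 0.14). Srsf3, the smallest SR protein, read 1543, 1547, 2034 and 2291 in ASC, 1537, 931, 2792 and 2224 in QSC, and 881, 1214, 905 and 1052 in NMC, with a wide QSC range and a difference of 0.08 ± 0.20 (adjusted p = 0.73). Srsf6 read 1886, 2142, 1993 and 1979.8 in ASC, 1800.3, 1838, 1295 and 1663 in QSC, and 1106, 1116, 1132 and 1067 in NMC, where the ASC arrays lay just above the QSC arrays and the difference was 0.29 ± 0.13 (adjusted p = 0.064). Srsf4 differed by 0.06 ± 0.15 (adjusted p = 0.75).

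Of the hnRNP genes 6 were called higher in ASC. Hnrnpll, a relative of Hnrnpl known for the splicing of CD45 in T cells, read 1536, 1477, 1900.1 and 1936 in ASC, 978, 1069.7, 1023 and 935 in QSC, and 573, 697, 592 and 689 in NMC. The 3 groups did not overlap, with ASC highest and NMC lowest, and ASC exceeded QSC by 0.76 ± 0.13 (adjusted p = 1.6e-04). Hnrnpm read 1489, 1742, 2261 and 2303 in ASC, 1040.0, 774, 1323 and 1413 in QSC, and 668, 959, 629 and 703 in NMC, with ASC above every QSC array and a difference of 0.78 ± 0.16 (adjusted p = 7.6e-04). Hnrnpab, a protein that binds RNA and CArG box DNA, read 3503, 3298, 7348 and 6879.5 in ASC, 2914, 2545, 2367 and 3056 in QSC, and 1645, 2388, 2485 and 2328 in NMC. Its ASC arrays were above all others but split by kit, with a difference of 0.86 ± 0.19 (adjusted p = 0.0014).

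Hnrnpab was the only member whose difference between ASC and QSC itself differed between the kits, where 7.32% of all genes were called for this. It was 0.32 with small-sample and 1.40 with two-cycle arrays, an interaction of 1.08 ± 0.25 (adjusted p = 0.027). This call was lost when ASC replicates 1, 2, 3 or 4 or QSC replicate 3 were left out in turn and with 4 other settings.

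Hnrnpd (AUF1), which binds AU-rich elements of unstable mRNAs, read 1105, 659, 1328 and 1307 in ASC, 759, 629.9, 651 and 511 in QSC, and 358, 367, 273 and 330.0 in NMC. ASC replicate 2 lay among the QSC arrays and the other ASC arrays above them, with a difference of 0.73 ± 0.21 (adjusted p = 0.0072). Hnrnpl, which binds CA repeats, had low signals of 187, 196, 98.5 and 80 in ASC, 96, 146, 35.5 and 51.6 in QSC, and 125, 54.8, 52.9 and 32.6 in NMC. Small-sample arrays read higher in every group, so ASC and QSC overlapped across kits and not within them, and the difference was 0.74 ± 0.17 (adjusted p = 0.0018). Hnrnpu (SAF-A), a scaffold attachment protein, read 1668, 2201, 2986 and 2871 in ASC, 1098, 1309.6, 2585 and 1991 in QSC, and 1251, 1699.8, 1444 and 1499 in NMC. ASC and QSC overlapped in Hnrnpu, and the difference of 0.52 ± 0.16 (adjusted p = 0.011) turned to -0.66 with the mean of its probe sets.

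Another 7 hnRNP genes were called lower in ASC, and 3 of them encode the closely related proteins H1, H2 and H3, which with hnRNP F bind runs of G. Hnrnph1 read 1892, 1647, 2398 and 2410.3 in ASC, 2936, 2510.2, 4514 and 3868 in QSC, and 1868, 2382, 2147 and 2121 in NMC. No ASC array reached the lowest QSC array, NMC lay within the range of ASC, and the difference was -0.71 ± 0.13 (adjusted p = 3.2e-04). Hnrnph3 read 291, 229, 523 and 420.2 in ASC, 667, 472, 593 and 619 in QSC, and 350.2, 521, 439 and 449 in NMC, with ASC replicate 3 inside the QSC range and a difference of -0.72 ± 0.18 (adjusted p = 0.0024). Hnrnph2 read 707, 588, 413 and 502 in ASC, 835, 962, 645 and 710.2 in QSC, and 458, 428, 402 and 298 in NMC, where the groups overlapped across kits, and differed by -0.51 ± 0.15 (adjusted p = 0.0071). Hnrnpf, from the same group of proteins, differed by -0.17 ± 0.16 (adjusted p = 0.35) in its highest probe set and was not called. It was called higher in ASC with plain _at probe sets (0.93) and with the mean of its probe sets (0.40).

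Hnrnpa1, an abundant repressor of exon inclusion, read 855, 849.7, 813 and 599 in ASC, 1891, 952, 1619 and 1118 in QSC, and 389, 456, 320.0 and 488 in NMC. The 3 groups did not overlap, with QSC highest, ASC next and NMC lowest, and ASC differed from QSC by -0.79 ± 0.22 (adjusted p = 0.0058). Hnrnpul2 read 461, 423, 500.4 and 414 in ASC, 497, 637, 879 and 1119 in QSC, and 959.7, 1106, 987 and 1087 in NMC. Read by its highest probe set, it was the one member called lower in ASC than in both other groups. ASC replicate 3 just exceeded QSC replicate 1, and the difference from QSC was -0.72 ± 0.18 (adjusted p = 0.0024). With the mean of its probe sets this difference was not called. The further probe set 1415765_at was called higher in ASC than QSC, and its ratio to the highest differed by 1.07 ± 0.21. Hnrnpdl, a close relative of Hnrnpd, read 3980.3, 3770.3, 7506 and 7169 in ASC, 5591, 5279, 11024 and 9137 in QSC, and 3488, 5482, 5029 and 6456 in NMC, with ASC below QSC within each kit. Its difference was -0.47 ± 0.13 (adjusted p = 0.0057), which was not called with the replicate number as a block. Hnrnpul1 was called at -0.45 ± 0.18 (adjusted p = 0.042), a call kept in 14 of 28 alternatives.

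The remaining 5 hnRNP genes were not called between ASC and QSC, with differences from -0.39 in Hnrnpr to 0.30 in Hnrnpc. Hnrnpc, which binds uridine tracts, read 4529, 4034, 8669 and 7978 in ASC, 4681, 3657, 5542 and 5856 in QSC, and 2222, 3314, 3264 and 3915 in NMC. With small-sample arrays ASC and QSC overlapped, and with two-cycle arrays ASC lay above QSC. A missed threshold does not show that these 5 genes were equal in ASC and QSC.

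Differences were also read within each kit. The median difference of ASC over QSC with small-sample and with two-cycle arrays was 0.94 and 1.05 for snRNP genes, 0.85 and 0.58 for SF3, -0.01 and 0.36 for SR, and -0.05 and -0.32 for hnRNP. Over all genes it was -0.04 and -0.18. The sign was the same in both kits for 36 of 43 members.

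Between QSC and NMC, both taken directly after the sort, nearly all calls were in the same direction. Of the 43, 27 were called higher in QSC, where 26.4% of all genes were, and 1 was called lower, where 26.6% were. The median difference was 0.61 over the members and 0.03 over all genes. The QSC arrays lay above all NMC arrays for 17 members (18.7% of all genes) and below all of them for 0 (21% of all genes). By family the numbers called higher were 4 of 7 snRNP, 5 of 9 SF3, 7 of 9 SR and 11 of 18 hnRNP genes. The SF3 count fell to 3 when ASC replicate 1, 3 or 4, QSC replicate 1 or 4, or NMC replicate 2 or 4 was left out, and without QSC replicate 4 Hnrnpul2 was called lower. On unscaled values, where the median of all genes moved by -0.37, 5 members were called higher and 4 lower. With median centring 23 and 1 were called, and with quantile normalization 28 and 1.

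The largest differences of QSC over NMC were those of Hnrnpa1 at 1.66 ± 0.23 (adjusted p = 3.9e-05) and Srsf10 at 1.35 ± 0.18 (adjusted p = 2.7e-05). In both genes all QSC arrays lay above all NMC arrays. Among the snRNP genes Snrpg differed most, by 1.17 ± 0.14 (adjusted p = 1.1e-05), and Snrpe by 0.94 ± 0.15 (adjusted p = 1.5e-04). With plain _at probe sets the difference of Snrpg was -0.0060 and not called. Among SF3 genes the largest rise was that of Sf3a2 at 0.80 ± 0.17 (adjusted p = 0.0017), where QSC and NMC overlapped across kits. Further SR genes called higher in QSC were Srsf1 at 0.98 ± 0.20, Srsf3 at 0.93 ± 0.20, Srsf5 at 0.76 ± 0.20, Srsf11 at 0.75 ± 0.19, Srsf2 at 0.61 ± 0.18 and Srsf6 at 0.53 ± 0.13. Among hnRNP genes the smallest adjusted p-values belonged to Hnrnpa1, Hnrnpdl, Hnrnph1 and Hnrnph2, with differences of 0.77 ± 0.13 for Hnrnpdl, 0.78 ± 0.13 for Hnrnph1 and 0.87 ± 0.15 for Hnrnph2.

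Sf3b5 was the member called lower in QSC than in NMC, at -1.01 ± 0.33 (adjusted p = 0.021). QSC replicates 1 and 4 came near the lowest NMC arrays, so the groups overlapped. The call was lost without QSC replicate 2 and without QSC replicate 3, each of which left 0 members called lower.

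Against NMC, ASC had the most members called. Of the 43, 32 were called higher in ASC, where 34.1% of all genes were, and 1 lower, where 38.3% were. The medians were 0.98 over the members and -0.07 over all genes. ASC lay above all NMC arrays in 27 members (29% of all genes) and below them in 1 (32.6% of all genes). All 7 snRNP genes, 8 of 9 SF3, 7 of 9 SR and 10 of 18 hnRNP genes were called higher. With median centring 39 members were higher and 1 lower, with unscaled values 29 and 1, and with quantile normalization 30 and 1. This comparison shares its arrays with the other 2, so its values repeat part of theirs.

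The snRNP genes differed between ASC and NMC by 1.18 ± 0.14 in Snrpg up to 1.81 ± 0.17 in Snrpa1, each over 2-fold and each without overlap of the arrays. The largest differences of the other families were 1.63 ± 0.13 in Sf3a3, 1.39 ± 0.18 in Srsf2 and 1.66 ± 0.22 in Hnrnpd. Hnrnpul2 was the member called lower in ASC, at -1.09 ± 0.18 (adjusted p = 9.2e-05), with all ASC arrays below all NMC arrays. Sf3b1, Srsf5, Hnrnph1 and Hnrnph3, which were called lower in ASC than QSC, differed from NMC by -0.06 ± 0.14, -0.09 ± 0.20, 0.07 ± 0.13 and -0.20 ± 0.18 and were not called.

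**Figure D3:**
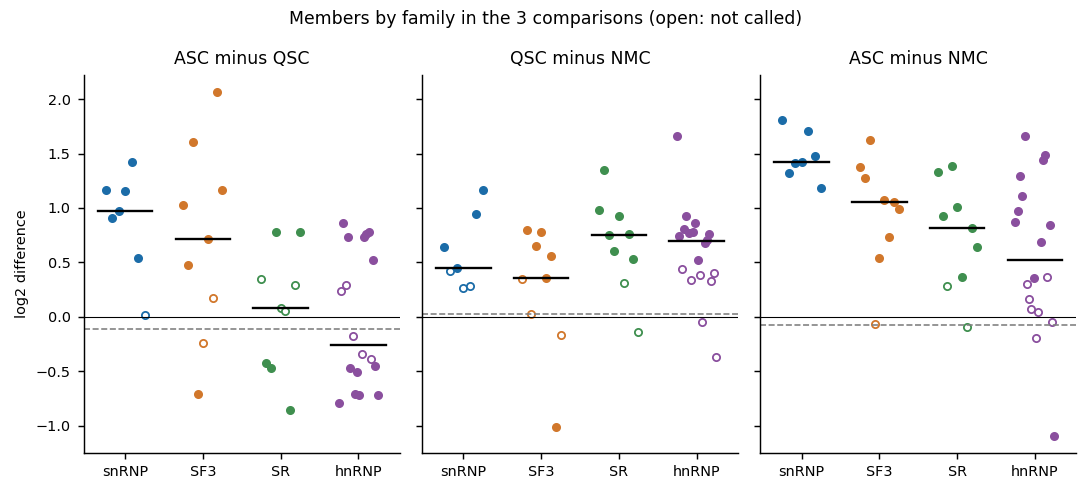
Log2 difference (y axis) of the members by family in ASC against QSC, QSC against NMC and ASC against NMC. Filled points were called, black lines are family medians and the dashed line is the median of all genes in that comparison. Family medians lie above the dashed line in all panels except for hnRNP genes in ASC against QSC (-0.26 against -0.11). There the hnRNP median was also below that of all genes with quantile normalization (-0.22 against 0.01). With median centring (0.23 against 0.36) and unscaled values (0.05 against 0.18) it was above 0. Its place below the median of all genes is not tested by these, since they move all genes nearly alike.

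Put together, the calls in the 3 groups fall into 4 main orders. At their highest in QSC, called above both ASC and NMC, were 9 members (12% of all genes): Hnrnpa1, Hnrnpdl, Hnrnph1, Hnrnph2, Hnrnph3, Sf3b1, Srsf5, Srsf10 and Srsf11. Another 9 (7.73% of all genes) were called at each step from NMC over QSC to ASC: Hnrnpd, Hnrnpll, Hnrnpm, Sf3a2, Sf3b3, Snrpa1, Snrpb2, Snrpe and Srsf2. High in ASC alone were 10 members (14.2% of all genes): Hnrnpab, Hnrnpl, Hnrnpu, Sf3a1, Sf3a3, Sf3b6, Snrpb, Snrpc, Snrpd3 and Srsf9. A further 8 (5.57% of all genes) were called higher in both satellite cell groups than in NMC with ASC against QSC not called: Hnrnpa2b1, Hnrnpc, Sf3b2, Sf3b4, Snrpg, Srsf1, Srsf3 and Srsf6. The QSC peak rests on the lower calls in ASC that median centring and unscaled values do not give. The peak, the steps and the last group need calls of QSC over NMC, of which unscaled values give 5 in place of 27. Single calls that these orders need were kept in 8 of 28 alternatives for Sf3b3 and 13 of 28 for Sf3b4 (QSC over NMC) and in 14 of 28 for Srsf10 (ASC against QSC). The replicate block did not call Sf3b3, Snrpb2 and Hnrnph3 in QSC over NMC. Placements also rest on each gene's highest probe set. With the mean of probe sets Hnrnpu (-0.66), Hnrnpa2b1 (-0.57), Srsf6 (-0.52) and Sf3b4 (-0.37) were called lower in ASC than QSC and Sf3b2 (0.35) higher. Snrpd3 (-0.33) and Sf3a2 (-0.05) were not called there. Plain _at probe sets called Hnrnpa2b1 lower in ASC than in QSC (-1.87) and NMC (-0.38), and did not call Snrpg in QSC over NMC.

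Probe sets of the same gene often disagreed between ASC and QSC. Of 106 member probe sets above the filter, 39 were called higher in ASC (30.7% of all probe sets) and 33 lower (37.6%). The difference of each further probe set from the gene's highest one was tested as a ratio within the array, which a scaling factor changes only through the pseudocount. Such a ratio was called for 36 of 63 member probe sets (57.1%), against 36.2% of all ratios, and in 20 of these the further probe set was lower in ASC (17.2% of all ratios) and in 16 higher (19% of all ratios). They came from 23 genes. Between QSC and NMC 72 member probe sets were called higher (27.4% of all probe sets) and 1 lower (24%), and between ASC and NMC 70 higher (34.1%) and 6 lower (35.9%). Between QSC and NMC 5 of 63 ratios were called (10.9% of all ratios), and between ASC and NMC 23 of 63 (27.8% of all ratios).

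Of 29 members with at least 2 probe sets above the filter, 7 had probe sets called in opposite directions between ASC and QSC (24.1%, against 6.38% of all such genes). They were Hnrnpab, Hnrnpu, Hnrnpul2, Sf3a2, Snrpd3, Srsf3 and Srsf10. Hnrnpab, Hnrnpu, Snrpd3 and Srsf3 were among such genes under median centring, unscaled values and quantile normalization as well.

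The widest spread was in Hnrnpu. Its probe set 1434390_at read 38.3, 42.2, 64.9 and 67 in ASC, against 273, 397, 390.0 and 419 in QSC. Every ASC array lay far below every QSC array, and the difference was -2.51 ± 0.19 (adjusted p = 7.6e-08), while the highest probe set was called higher in ASC. The ratio of the 2 probe sets differed between ASC and QSC by -3.03 ± 0.19 (adjusted p = 1.8e-07). A further probe set, 1434391_at, had a ratio to the highest that differed by -2.06 ± 0.27 (adjusted p = 7.8e-05).

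In Srsf3 the probe set 1438215_at read 29.4, 47.6, 27.7 and 46.1 in ASC, against 205, 299.9, 128 and 226 in QSC. Its ASC and QSC ranges were far apart, and it differed by -2.10 ± 0.25 (adjusted p = 7.4e-06), while the highest Srsf3 probe set was not called. In Snrpd3 the probe set 1449629_s_at read 149.7, 138, 96.1 and 77.8 in ASC, against 283, 326, 218 and 225 in QSC, a difference of -1.11 ± 0.17 (adjusted p = 5.3e-05) against the rise of the highest one. Hnrnpa2b1, also known for RNA transport, had a probe set 1433830_at that read 310.4, 326, 311 and 367 in ASC, against 992, 1073, 1579.9 and 1389 in QSC. No ASC array came near a QSC array there, and the difference was -1.87 ± 0.16 (adjusted p = 2.2e-07), while the highest probe set of Hnrnpa2b1 was not called at 0.23 ± 0.15.

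Ratios also moved toward ASC. In Srsf10 the probe set 1418527_a_at read 235, 247, 297 and 342 in ASC, against 92, 101, 169 and 163 in QSC, with ASC above QSC throughout. It differed by 1.04 ± 0.16 (adjusted p = 4.8e-05), against -0.43 ± 0.17 for the highest one, and the ratio differed by 1.47 ± 0.20 (adjusted p = 9.0e-05). In Snrpg the probe set 1448357_at read 443, 470.5, 797 and 683 in ASC, against 227, 172, 156 and 208 in QSC. It was higher in ASC by 1.55 ± 0.18 (adjusted p = 6.0e-06), while the highest Snrpg probe set differed by 0.02.

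In Hnrnpab the probe set 1426114_at read 214, 216, 278 and 270.5 in ASC, against 533, 569.6, 744 and 648 in QSC, without overlap, and its ratio to the highest differed by -2.15 ± 0.24 (adjusted p = 1.7e-05). Which part of a transcript each probe set reads is not given in the sources used here. Names ending in _a_at, _s_at or _x_at, carried by 60 of the 115 member probe sets, mark probe sets whose probes match several transcripts, those of the same gene for _a_at and in part those of other genes for _s_at and _x_at. The 3′ to 5′ ratio of control RNA was higher in QSC than ASC for Gapdh, and within each kit for beta-actin too. Its part in the probe set ratios, which were called in both directions, was not tested.

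**Figure D4:**
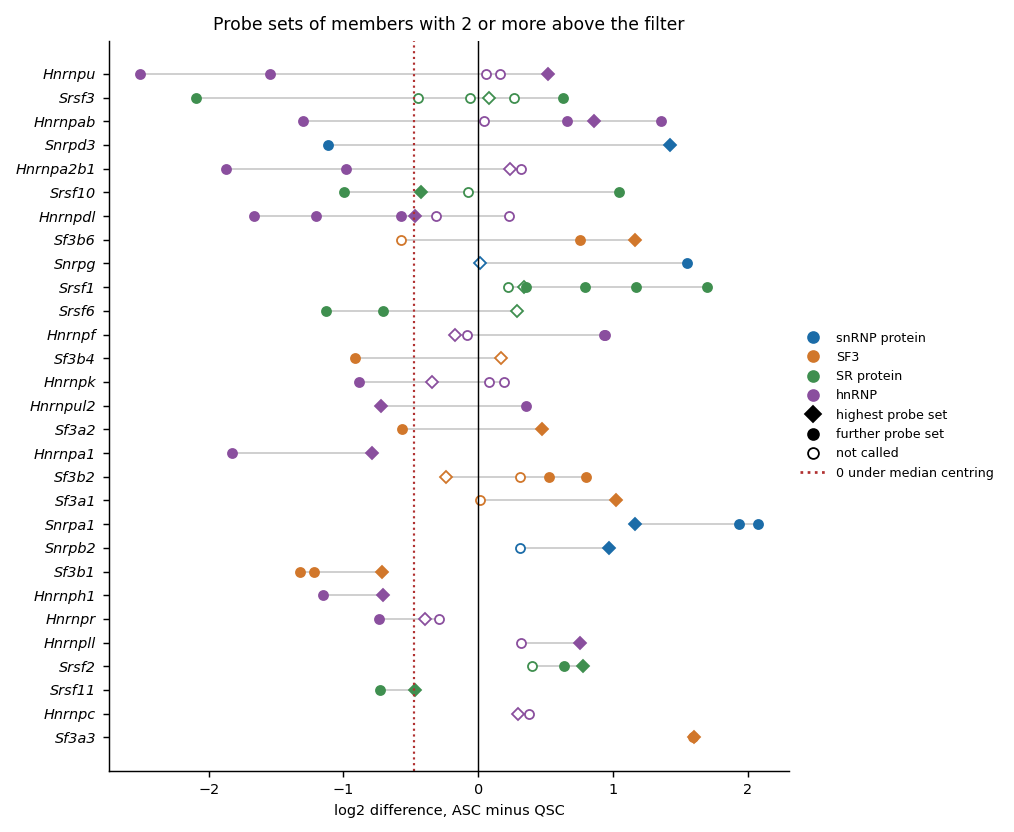
Log2 difference between ASC and QSC (x axis) of each probe set above the filter in the 29 members with at least 2. Diamonds are the gene's highest probe set, circles its further ones, filled points were called, and the dotted line is where 0 would lie with median centring. Probe sets of Hnrnpu run from -2.51 to 0.52, while those of Sf3a3 lie together.

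Among pairs of related members, the ratio of Hnrnpdl to Hnrnpd was lower in ASC than in QSC by -1.20 ± 0.21 (adjusted p = 5.8e-04). The ratio of Hnrnph2 to Hnrnph1 differed by 0.19 ± 0.18 (adjusted p = 0.44) and that of Hnrnpll to Hnrnpl by 0.02 ± 0.20 (adjusted p = 0.95).

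Other genes of the splicing machinery, from 130 listed genes of which 108 were tested, gave 43 called higher (39.8%, against 31.8% of all genes) and 25 lower (23.1%, against 38.2%) in ASC than QSC. With median centring the counts were 70 and 13. Of the assembly factors that load Sm rings onto snRNA, 8 of 9 were called higher and 0 lower. Prmt5, the methyltransferase that modifies Sm proteins, read 923, 1173, 1092 and 1041 in ASC, against 353, 306, 322 and 361 in QSC. Its 2 ranges were far apart, and the difference was 1.61 ± 0.12. Its partner Wdr77 differed by 1.63 ± 0.15, Gemin2 of the SMN complex by 1.27 ± 0.17 and Strap by 1.10 ± 0.17.

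The LSm ring, which binds U6 in place of Sm proteins, had 4 of 5 genes called higher. For this and the following lists, 31.8% of all genes were called higher and 38.2% lower. The 4 were Lsm3 by 1.56 ± 0.12, Lsm8 by 1.49 ± 0.14, Lsm2 by 1.70 ± 0.19 and Lsm4 by 1.36 ± 0.19. Of 13 U5 and tri-snRNP genes 6 were higher, with Prpf31 at 2.07 ± 0.15, Usp39 at 1.23 ± 0.16, Prpf3 at 0.84 ± 0.15 and Prpf38a at 0.57 ± 0.12. The kinase gene Prpf4b was the lower one at -1.73 ± 0.31. Of 9 genes that recruit U2, 3 were called higher (Phf5a, an SF3b partner, at 1.38 ± 0.13, Rbm17 at 1.15 ± 0.13 and Ddx46 at 1.17 ± 0.24) and 0 lower. Of 14 Prp19 complex genes 7 were higher, among them Plrg1 at 1.17 ± 0.14, Cwc15 at 1.23 ± 0.18 and Bcas2 at 0.90 ± 0.14, and Syf2 at -1.28 ± 0.13 and Xab2 at -0.44 ± 0.14 were lower. The call of Xab2 was lost with median centring.

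Kinases and relatives of the SR proteins went the other way in number, with 2 of 12 higher (31.8% of all genes) and 7 lower (38.2%) in ASC. The Clk kinases phosphorylate SR proteins in the nucleus. Clk1 read 434, 458, 469 and 479.5 in ASC, against 2648, 3553, 4540.1 and 2954 in QSC. Its QSC arrays were all far above its ASC arrays, and the difference was -2.83 ± 0.20. Clk4 differed by -1.75 ± 0.18, Son, a scaffold of nuclear speckles, by -1.25 ± 0.14, and Clk2 by -0.87 ± 0.15. The 2 higher genes were Srpk1, the cytoplasmic SR kinase, at 0.62 ± 0.14, and Tnpo3, which imports SR proteins, at 0.49 ± 0.18. Clk1, Clk2, Clk4 and Son were called lower under all 4 scalings, and with median centring 4 genes of this list were called lower.

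Helicases of the spliceosome had 3 higher and 3 lower of 8, near the shares of all genes (31.8% higher and 38.2% lower). Ddx39a was the highest at 2.95 ± 0.12 and Ddx17 the lowest at -1.41 ± 0.16. The exon junction complex had 2 genes higher and 1 lower of 5, and the U1 list 1 and 2 of 5, with Prpf39 at -1.31 ± 0.14 and Luc7l2 at -0.97 ± 0.14 lower. Of 28 other splicing regulators 7 were higher and 9 lower, both under the shares of all genes. Mbnl3, a muscleblind protein of myoblasts, was higher at 1.98 ± 0.14 and Mbnl1 lower at -1.28 ± 0.20. Sfpq, a paraspeckle protein, was lower at -2.36 ± 0.22, Rbm39 at -1.33 ± 0.17, and Tardbp was higher at 0.94 ± 0.13.

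Against NMC, QSC had 56 of the 108 listed genes called higher (51.9%, against 26.4% of all genes) and 4 lower (3.7%, against 26.6%). ASC had 75 higher (69.4%, against 34.1%) and 10 lower (9.26%, against 38.3%). The 4 lower in QSC were Cwc15, Gemin7, Mbnl3 and Khdrbs3. With unscaled values 16 and 4 were called for QSC against NMC.

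**Figure D5:**
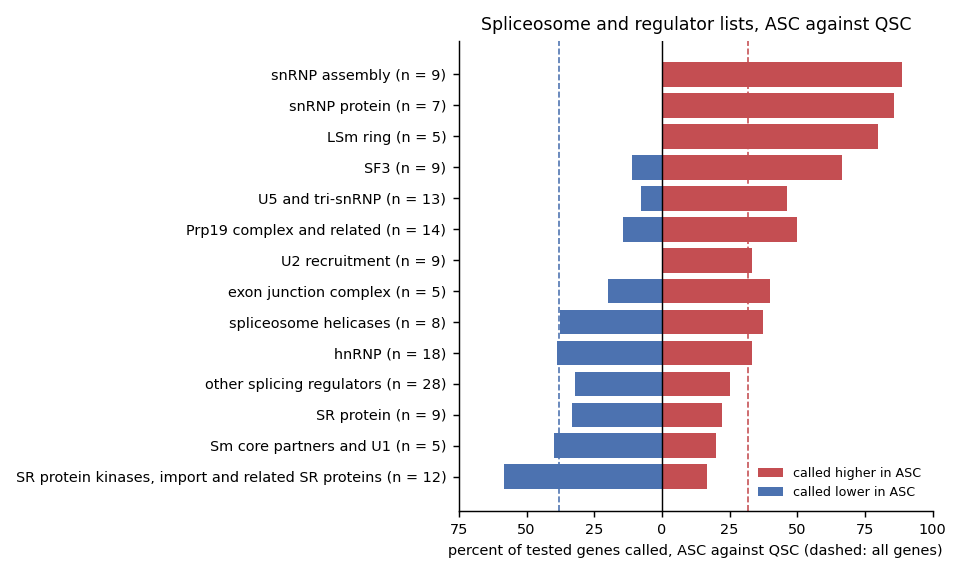
Share of the tested genes of each list called higher (right) and lower (left) in ASC than in QSC, in percent, with n as the number tested. Dashed lines are the shares of all genes (31.8% higher and 38.2% lower). Assembly factors, snRNP proteins and the LSm ring have no gene called lower, and the SR kinase list has 7 of 12 called lower (4 of 12 with median centring).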

How the data were processed

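Affymetrix Mouse 430A arrays read RNA of 12 samples. The authors deposited 1 linear intensity per probe set and array, made with MAS5 per the submitters' processing notes. Neither a version nor settings of that program are given in the sources used here. The number of arrays limits the precision. Members and lists were chosen with earlier results of these data known.

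Each array was scaled to a 2% trimmed mean of 235, and log2(signal + 14.7) was used, where the pseudocount is 1/16 of that mean, so that changes of low genes are understated. Of 22690 probe sets, 691 with several annotated genes were left out, as were 64 controls and 1555 without a gene. Each gene was read by its highest probe set, with a mean signal of at least 47.0. Models with terms for group and kit were fitted to all 12 arrays by limma 3.58.1 under R 4.3.3 (lmFit, then eBayes), which left 8 residual degrees of freedom. Benjamini-Hochberg adjustment ran over 7960 genes, all probe sets above the filter, or all ratios. Signals on every array are given, per family and comparison, for up to 4 called members per direction with the smallest adjusted p, for members called against most of their family and for the largest change, and up to 4 genes are given per other list. Further members were described to complete the families.

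On simulated data of 7960 genes for ASC against QSC, 19.4% of 1.41-fold changes, 71.6% of 2-fold changes, 98.5% of 4-fold changes and 8 unchanged genes were called. Only 67, 67 and 66 genes were changed by these folds, while in the data 31.8% of genes were called higher and 38.2% lower. The Benjamini-Hochberg threshold is stricter with so few changed genes, so these shares need not carry over to the data. The interaction with the kit found 63.6% of 4-fold changes, 1.49% of 2-fold changes and 0% of 1.41-fold changes, so that smaller differences between kits were mostly missed in this simulation. Pairing was checked through the replicate numbers. Deviations of ASC and QSC arrays of the same number correlated at 0.15 to 0.28, where the kits coincide with the numbers, and at -0.51 to -0.23 once the kit was removed. Those of QSC and NMC arrays correlated at -0.37 to 0.39. Once group and kit are fitted, what is left cancels within each group and each kit, which pushes such correlations below 0. Arrays of unlike number were not compared, so this check does not decide whether the replicates were paired. Alternatives covered the kit term, pseudocount, filter, scaling, choice of probe sets, array weights, variance model, arrays in the fit, each array left out and the replicate block. Figures were drawn with matplotlib 3.10.9 in Python 3.11.15.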

Additional observations from a re-analysis of the deposited data

Results flagged for a closer look

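In 5 of 129 sets of 4 arrays (43 members in 3 groups) 1 array stood far from the other 3. A rule of this kind marks about 1 set in 20 by chance, which is 6.45 of 129. In NMC, replicate 1, the only NMC array of the small-sample kit, read 1645 for Hnrnpab, against 2328 to 2485 on the other 3, and 288 for Sf3b6, against 969.8 to 1115. In QSC, replicate 3 read 1185 for Sf3b2, against 798 to 848. In ASC, replicate 4 read 599 for Hnrnpa1, against 813 to 855, and replicate 3 read 2128 for Hnrnpf, against 1684 to 1746.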

How the results depend on the processing

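The small-sample arrays alone (2 ASC, 2 QSC and 1 NMC) called 12 members higher and 4 lower in ASC than QSC, 5 higher and 0 lower in QSC than NMC, 20 higher in ASC than NMC, and 47 probe sets and 13 ratios in ASC against QSC. Unscaled values called 0 lower in ASC than QSC, and 5 higher and 4 lower in QSC than NMC. Median centring called 0 lower in ASC than QSC. The two-cycle arrays alone called 2 members lower in QSC than NMC, and probe sets named with a plain _at called 2 lower in ASC than NMC. Differences between kits were called for 3 members with a pseudocount of 1/4 of the trimmed mean, and for 0 with no filter, unscaled values, quantile normalization or the mean of probe sets. With each array left out in turn, the members lower in QSC than NMC were 0 to 2 and those that differed between kits 0 to 2. The other counts over all members, and those of probe sets and ratios called in ASC against QSC, stayed within 1.5 times their values in the report. Counts by family moved further. In ASC against QSC they ran from 1 to 6 higher and 0 to 3 lower for SR genes. For hnRNP genes they ran from 1 to 8 higher and 0 to 9 lower. In QSC against NMC the genes called higher were 0 to 6 for SF3, 1 to 6 for snRNP, 2 to 7 for SR and 1 to 15 for hnRNP.

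In ASC against QSC the mean of probe sets turned the difference to -0.33 in Snrpd3, -0.046 in Sf3a2, 0.35 in Sf3b2, -0.37 in Sf3b4, -0.52 in Srsf6, -0.57 in Hnrnpa2b1, 0.40 in Hnrnpf and -0.66 in Hnrnpu. Plain _at probe sets gave -1.87 in Hnrnpa2b1 and 0.93 in Hnrnpf, and median centring 0.057 in Srsf10, 0.019 in Srsf11, 0.025 in Hnrnpdl and 0.038 in Hnrnpul1. In QSC against NMC the values that turned with a call on either side were -0.0060 in Snrpg (plain _at) and -0.033 in Sf3b3 (unscaled), and in ASC against NMC 0.36 in Sf3b1 (median centring) and -0.38 in Hnrnpa2b1 (plain _at). Of 3600 gene values under alternatives, 3201 kept direction and call, 214 lost the call, 87 gained it, these 18 changed sign with a call on either side, and 80 changed sign with no call on either side. The cause was not tested.

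With the replicate number as a block in place of the kit, 20 members were higher and 9 lower in ASC than QSC, 25 and 1 in QSC than NMC, and 31 and 1 in ASC than NMC, with 66 probe sets and 27 ratios called in ASC against QSC. The block lost Srsf10 and Hnrnpdl in ASC against QSC, Hnrnph3, Sf3b3 and Snrpb2 in QSC against NMC, and Srsf4 in ASC against NMC, gained Hnrnpul1 in QSC against NMC, and changed no other call of a member. Detection calls were not used here, so low signals such as those of Hnrnpl are not set against background.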
